A study of Caenorhabditis elegans with 14 samples.

Results

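DNA replication genes were taken from the gene table of the series as the protein-coding entries whose Gene Ontology field holds the exact term "DNA replication". The rule found 59 entries, each at a locus of its own, among 41875 entries in all and 19961 protein-coding ones. It used annotation and no measured value. RNA had been sequenced from gravid, synchronized worms of Caenorhabditis elegans on day 1 of adulthood, raised at 20 °C on OP50 bacteria. The wild type was N2, and the other strain was labelled pycr-1(wrm22), an allele of the gene for pyrroline-5-carboxylate reductase, which makes proline. About 12000 worms were harvested per genotype and replicate, and all groups were exposed to cycloheximide, which holds ribosomes on mRNA. Total RNA of the cleared lysate and polysomal RNA, from gradient fractions in which an mRNA carried at least 3 ribosomes, gave 4 groups. The wild type had 3 libraries of total and 3 of polysomal RNA, and the mutant-labelled strain had 4 of each.

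Replication starts when the origin recognition complex and CDT-1 load the ring-shaped MCM helicase onto DNA. The GINS complex activates the helicase, primase and DNA polymerase alpha lay down primers, and polymerases delta and epsilon extend them while held by the sliding clamp PCNA. In the adult worm the somatic cells no longer divide, and the dividing cells lie in the germline and in the embryos held in the uterus.

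Levels are the authors' pooled FPKM (fragments scaled by transcript length and sequencing depth). Each group has 1 such value per gene and none for single libraries, so each level is printed without an error and the depth was unknown. A log2 fold change and a q-value come from the authors' deposited table (Cuffdiff), and a difference was called where q was under 0.05. The value after ± is a standard error calculated here, also where the change itself is from the authors' deposited table. It uses the variances implied by the deposited test statistics, each divided by the group's number of libraries (3 or 4). Without that division, which was a choice made here, the errors would be larger. Confidence intervals use the same standard error. Every change given with ± is on the log2 scale, with the mutant-labelled strain over the wild type or polysomal over total RNA. The labels do not say that the replicates were separate cultures, so the p-values measure only the spread between these libraries, which may be technical. The gene named in the allele does not check the strain label: pycr-1 had 4.91 FPKM in wild-type and 20.3 FPKM in mutant-labelled total RNA, and 12.6 and 40.8 FPKM in polysomal RNA. The authors' deposited table gave it a log2 fold change of 2.05 in total RNA (q = 0.000207). The direction of each strain difference therefore rests on the library labels, and the 2 strains are called wild type and mutant-labelled.

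Replication genes were among the more abundant transcripts of these worms. In wild-type total RNA, 58 members that had a test ranged from 0.438 FPKM for twnk-1 to 352 FPKM for rnr-2, with a median of 70.9 FPKM against 7.65 FPKM over the 15557 entries tested. Of these members, 56 lay above the median of all tested entries. The median member had 37.8 FPKM in wild-type polysomal, 43.0 FPKM in mutant-labelled total and 21.5 FPKM in mutant-labelled polysomal RNA. The remaining member, C25F9.2, whose annotation is DNA polymerase activity, stayed between 0.0239 and 0.0443 FPKM in the 4 groups and was not tested in any comparison. The plot of levels by member shows the 58 others in the order of their roles.

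**Figure D1:**
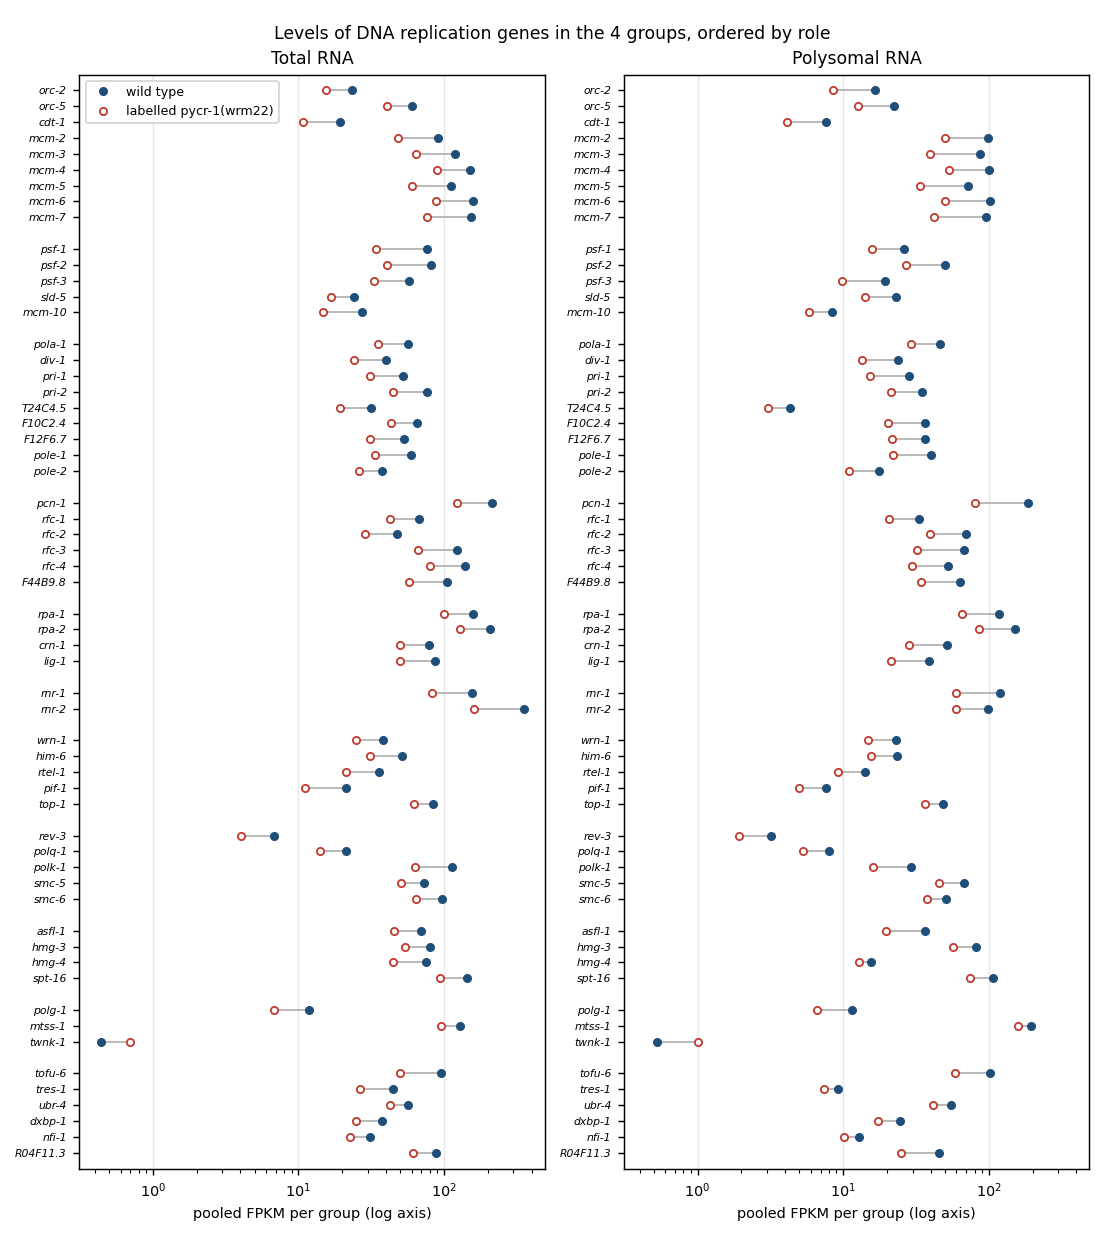
Pooled FPKM (log axis) of the 58 tested DNA replication genes in total RNA (left) and polysomal RNA (right), with filled points for the wild type, open points for the mutant-labelled strain and a line joining them. Each point is 1 value per group with no error; the open point lies left of the filled point for every gene but twnk-1.

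In total RNA the mutant-labelled strain had less of nearly every replication transcript. Of 58 members tested, 57 fell, 0 rose and twnk-1 was not called. By the authors' deposited table, a share of 27.9% of all 15557 entries tested were called lower and 18.6% higher. Among the 8484 entries at 5 FPKM or more in both groups, which are nearer to the members in level, 43.8% were called lower and 12.1% higher. The members' median log2 fold change was -0.75, against -0.04 over all entries tested and -0.35 over those at 5 FPKM or more. Relative to the latter median, 57 of 58 members lay lower and the members' median was -0.40. In bulk RNA of whole worms, fewer cells of a type and less RNA per cell cannot be told apart.

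The polysomal RNA gave the same direction with fewer calls. Of 58 members tested, 50 fell, twnk-1 rose, and psf-1, mcm-10, T24C4.5, hmg-4, tres-1, nfi-1 and mtss-1 were not called. By the authors' deposited table, a share of 23.9% of 14696 entries tested were called lower and 14.8% higher, and at 5 FPKM or more in both groups 34.3% of 8415 entries were lower and 10.5% higher. The median over members was -0.80, against -0.07 over all entries and -0.26 at 5 FPKM or more, so that it was -0.55 relative to the latter. All 50 members that fell in polysomal RNA had also fallen in total RNA.

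**Figure D2:**
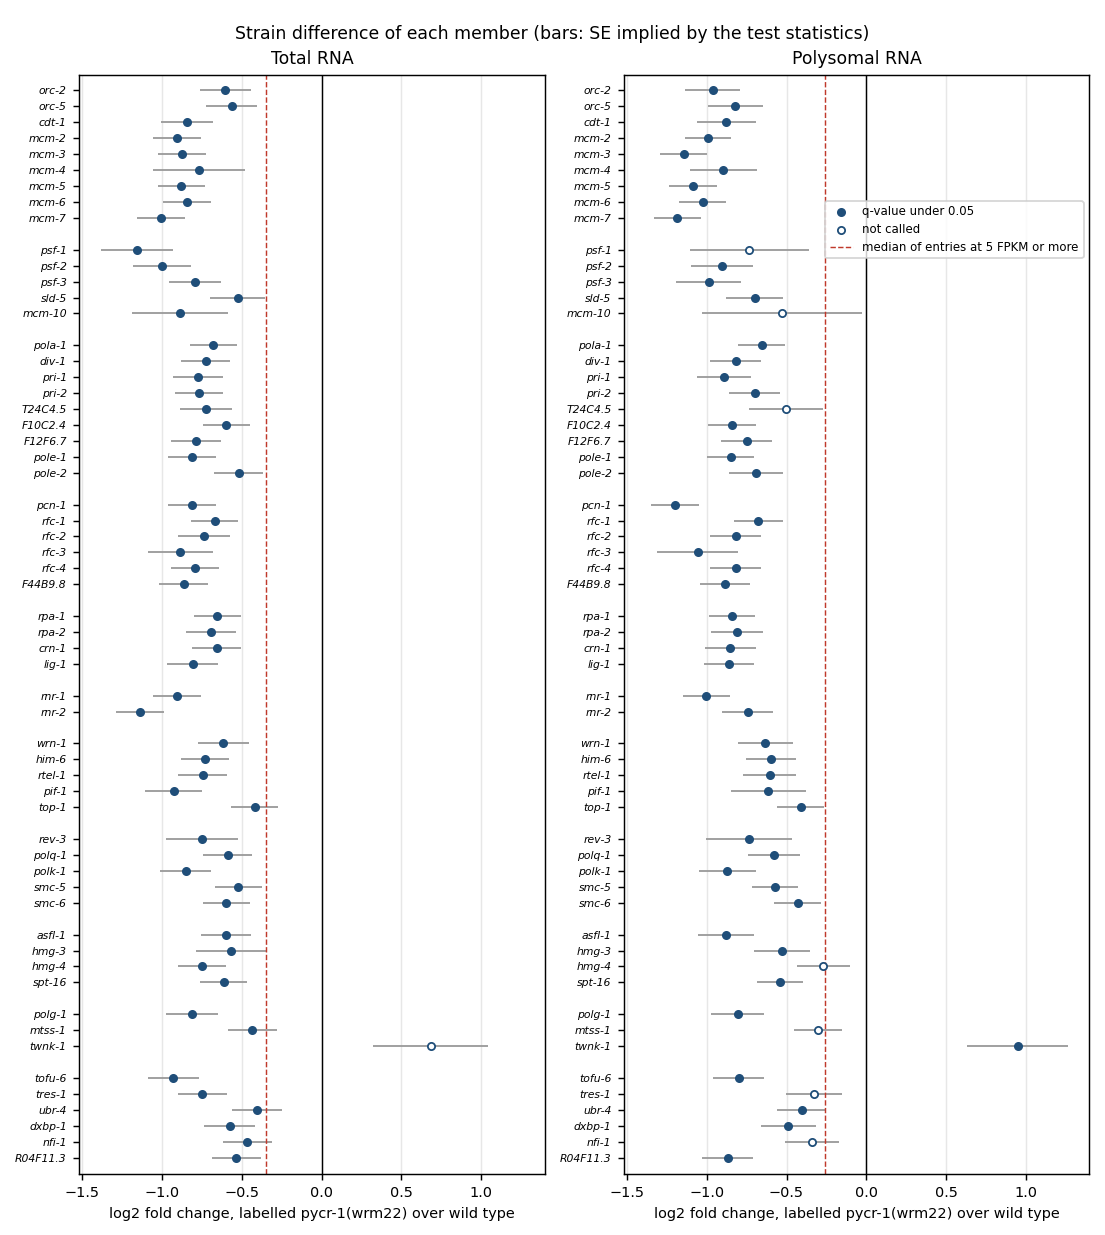
Log2 fold change of the mutant-labelled strain over the wild type for each of 58 members in total RNA (left) and polysomal RNA (right). Bars are the standard error from the variances implied by the authors' test statistics, each divided by the group's number of libraries (3 or 4). Filled points have q under 0.05. The dashed line is the median of entries at 5 FPKM or more, at -0.35 and -0.26. In each panel 57 of 58 points lie left of the dashed line.

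The licensing group, which readies origins before S phase, held 9 members that all fell in both RNA fractions, with a median log2 fold change of -0.84 in total and -0.99 in polysomal RNA. The 6 subunits of the MCM helicase, which unwinds DNA ahead of the polymerases, kept close to each other. They spanned 90.8 to 157.8 FPKM in wild-type total, 48.5 to 89.02 FPKM in mutant-labelled total, 71.6 to 101.4 FPKM in wild-type polysomal and 33.7 to 53.7 FPKM in mutant-labelled polysomal RNA. In each fraction every subunit was lower in the mutant-labelled group than the lowest subunit of the wild type. In total RNA the margin was small, with mcm-4 at 89.02 FPKM against mcm-2 at 90.8 FPKM. The fold changes of the 6 subunits ran from -1.01 to -0.77 in total and from -1.18 to -0.90 in polysomal RNA. The smallest fall in each was that of mcm-4, with standard errors of 0.29 and 0.21. Its deposited interval is 1.57 times as long as the annotated gene and takes in another protein-coding gene.

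The subunit mcm-7 (WBGene00003159, chromosome V, 4347166 to 4349768, build WBcel235) had 153.9 FPKM in wild-type and 76.5 FPKM in mutant-labelled total RNA, and 95.5 and 42.0 FPKM in polysomal RNA. The authors' deposited table put its log2 fold change at -1.01 ± 0.15 in total and -1.18 ± 0.15 in polysomal RNA, with q = 0.000207 in both. It was the third largest fall of the set in total RNA and the second in polysomal RNA. The helicase subunits mcm-3 and mcm-5 fell by 1.14 ± 0.15 and 1.09 ± 0.15 in polysomal RNA, where the 2 followed mcm-7 in size. The origin recognition subunits orc-2 and orc-5, which mark where replication begins, fell by less in total RNA, with -0.60 ± 0.16 and -0.56 ± 0.16. The helicase loader cdt-1 fell from 19.3 to 10.8 FPKM in total and from 7.61 to 4.14 FPKM in polysomal RNA.

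Of the genes that turn the loaded helicase on, the 4 GINS subunits and mcm-10, all 5 fell in total RNA and 3 of 5 in polysomal RNA. The GINS subunit psf-1 (chromosome II, 9968659 to 9970515) had the largest fall of any member in total RNA. It had 76.7 FPKM in the wild type and 34.3 FPKM in the mutant-labelled strain there, and 26.1 and 15.7 FPKM in polysomal RNA. The authors' deposited table gives -1.16 ± 0.23 in total RNA (q = 0.000207) and -0.73 ± 0.37 in polysomal RNA, which did not pass (q = 0.0932). The fall of psf-2 was -1.0 ± 0.18 in total and -0.90 ± 0.19 in polysomal RNA. That of psf-3 was -0.79 ± 0.16 and -0.99 ± 0.20. The smallest fall of the complex was that of sld-5, at -0.53 ± 0.17 in total RNA (q = 0.00865 in the authors' deposited table). For mcm-10, which helps the activated helicase, the polysomal difference of -0.53 ± 0.50 had the largest standard error of all members and was not called (q = 0.390). The deposited intervals of psf-1, psf-2 and mcm-10 are 1.94, 9.02 and 2.81 times as long as the annotated genes and take in other protein-coding genes, so reads of neighbours may be in their values.

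The 9 genes of the polymerases and of primase moved within a narrow range in total RNA, from -0.81 to -0.52, and all 9 fell. In polysomal RNA 8 of 9 fell, with a median of -0.75. The catalytic subunit of polymerase alpha, pola-1, went from 56.8 to 35.5 FPKM in total and from 46.1 to 29.3 FPKM in polysomal RNA. Its partner subunit div-1 fell by 0.73 ± 0.15 in total RNA, and the primase subunits pri-1 and pri-2 by 0.77 ± 0.16 and 0.77 ± 0.15. The genes annotated to polymerase delta, F10C2.4 and F12F6.7, fell by 0.60 ± 0.15 and 0.79 ± 0.16, and the subunits of polymerase epsilon, pole-1 (catalytic) and pole-2, by 0.81 ± 0.15 and 0.52 ± 0.16. The exception in polysomal RNA was T24C4.5, annotated to the complex of polymerase alpha and primase, at -0.51 ± 0.23 (q = 0.0567 in the authors' deposited table).

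The clamp and its loader held the largest polysomal fall of the set. The gene pcn-1 (WBGene00003955, chromosome IV, 4047937 to 4049448) encodes PCNA, the ring that keeps the polymerases on DNA. It had 215 FPKM in wild-type and 123 FPKM in mutant-labelled total RNA, and 185 and 80.6 FPKM in polysomal RNA. The strain difference by the authors' deposited table was -0.81 ± 0.15 in total and -1.20 ± 0.15 in polysomal RNA, both with q = 0.000207. The 5 genes of the clamp loader, which opens the ring and places it on DNA, were rfc-1 to rfc-4 and F44B9.8, annotated to the same complex. All 5 fell in both fractions, from -0.88 to -0.67 in total and from -1.06 to -0.68 in polysomal RNA. The largest of these was rfc-3, with -1.06 ± 0.25 in polysomal RNA (q = 0.000393 in the authors' deposited table). Its deposited interval is 2.49 times as long as the annotated gene and takes in another.

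The single-strand binding subunits and the enzymes that finish the lagging strand also fell, 4 of 4 in each fraction. The replication protein A subunit rpa-1 fell from 158 to 100.5 FPKM in total and from 118 to 65.6 FPKM in polysomal RNA, and rpa-2 by 0.69 ± 0.16 and 0.81 ± 0.16 on the log2 scale. The flap nuclease crn-1 fell by 0.66 ± 0.15 and 0.85 ± 0.16, and the ligase lig-1, which seals the finished fragments, by 0.81 ± 0.16 and 0.86 ± 0.16.

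Both subunits of ribonucleotide reductase, which makes deoxyribonucleotides, fell in both fractions. The small subunit rnr-2 (WBGene00004392, chromosome III, 4090291 to 4094921) was the most abundant member in total RNA. It had 352 FPKM in the wild type and 160.0 FPKM in the mutant-labelled strain in total RNA, and 99.4 and 59.4 FPKM in polysomal RNA. The large subunit rnr-1 had 155 and 82.8 FPKM in total and 120.1 and 60.0 FPKM in polysomal RNA. The small subunit was thus ahead of the large one in total RNA in both strains but not in polysomal RNA. Per length, the ratio of rnr-2 to rnr-1 was 2.27 in wild-type total, 1.93 in mutant-labelled total, 0.828 in wild-type polysomal and 0.989 in mutant-labelled polysomal RNA. By the authors' deposited table the strain difference was -1.14 ± 0.15 for rnr-2 and -0.91 ± 0.15 for rnr-1 in total RNA, and -0.74 ± 0.16 and -1.0 ± 0.15 in polysomal RNA, with q = 0.000207 in all 4. The deposited interval of rnr-2 is 2.87 times as long as the annotated gene and takes in 2 other protein-coding genes.

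Helicases that act on unusual DNA structures fell in both fractions. The RecQ helicases wrn-1 and him-6 (worm homologs of the Werner and Bloom helicases), rtel-1 and pif-1 were lower by 0.62 ± 0.16, 0.73 ± 0.15, 0.75 ± 0.15 and 0.93 ± 0.18 in total RNA. The topoisomerase top-1, which relaxes twisted DNA, had a small fall of 0.42 ± 0.15 in total and 0.41 ± 0.15 in polysomal RNA (q = 0.0152 and 0.0122 in the authors' deposited table). Only ubr-4, a ubiquitin ligase gene, had a smaller called fall in total RNA, with -0.41 ± 0.16. In the repair group all 5 fell in both fractions. They were the translesion polymerases rev-3 and polk-1, the repair polymerase polq-1, and smc-5 and smc-6, whose products form a ring complex around DNA. The values for polk-1 belong to an entry that merges it with C13G5.2, whose interval is 5.05 times as long as polk-1.

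Among the histone chaperones, asfl-1 and the FACT subunits spt-16, hmg-3 and hmg-4, all 4 fell in total RNA, with a median of -0.61. FACT moves histones out of the way of polymerases and back. In polysomal RNA 3 of 4 fell, and hmg-4, with 15.6 FPKM in the wild type and 12.9 FPKM in the mutant-labelled strain, was not called (-0.27 ± 0.17, q = 0.160 in the authors' deposited table).

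The genes of mitochondrial DNA replication did not move as a block. The mitochondrial polymerase polg-1 fell from 11.9 to 6.77 FPKM in total and from 11.5 to 6.58 FPKM in polysomal RNA. The single-strand binding protein gene mtss-1, the most abundant member in both polysomal groups, had 129 and 95.5 FPKM in total and 196 and 159 FPKM in polysomal RNA. It fell in total RNA (-0.43 ± 0.16, q = 0.0176 in the authors' deposited table) and was not called in polysomal RNA (-0.30 ± 0.15, q = 0.0787). The helicase gene twnk-1 (chromosome X, 5791703 to 5798790), the only member on that chromosome, was the least abundant of those tested. It had 0.438 and 0.702 FPKM in total and 0.523 and 1.01 FPKM in polysomal RNA. It was called higher in polysomal RNA (0.95 ± 0.32, q = 0.00923 in the authors' deposited table) and was not called in total RNA, where the 95% interval ran from -0.03 to 1.39. Its interval takes in another protein-coding gene.

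The other annotated members serve several processes. All 6 that were tested fell in total RNA and 4 of 6 in polysomal RNA. The piRNA factor gene tofu-6 fell by 0.93 ± 0.16 in total and 0.80 ± 0.16 in polysomal RNA. R04F11.3, annotated to replication and the nucleus, fell by 0.53 ± 0.15 and 0.87 ± 0.16, and dxbp-1, annotated as binding double-stranded DNA, by 0.58 ± 0.16 and 0.49 ± 0.17. The members not called in polysomal RNA were tres-1, annotated to the replication checkpoint (-0.33 ± 0.17), and the transcription factor gene nfi-1 (-0.34 ± 0.17).

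Replication transcripts were also less represented in polysomal than in total RNA, in each strain. FPKM is scaled within a library, so this is a share of polysomal RNA against a share of total RNA. In the wild type 46 of 58 members were lower in polysomal RNA, 2 were higher and 10 were not called. By the authors' deposited table, a share of 26.9% of 15266 entries were lower and 24.7% higher, and at 5 FPKM or more in both groups 32.6% of 8067 entries were lower and 32.8% higher. The members' median log2 difference was -0.74, against 0.04 at 5 FPKM or more, with 53 of 58 members below that value.

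In the mutant-labelled strain 47 of 58 members were lower in polysomal RNA, 2 were higher and 9 were not called. There, by the authors' deposited table, a share of 27% of 15425 entries were lower and 23.9% higher, and at 5 FPKM or more 28.5% of 8512 entries were lower and 32.6% higher. The members' median was -0.84 against 0.11 at 5 FPKM or more, and 54 of 58 lay below the latter. The 46 members lower in the wild type were lower in the mutant-labelled strain as well. The strain and fraction comparisons share their groups, so these counts are not independent of each other.

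**Figure D3:**
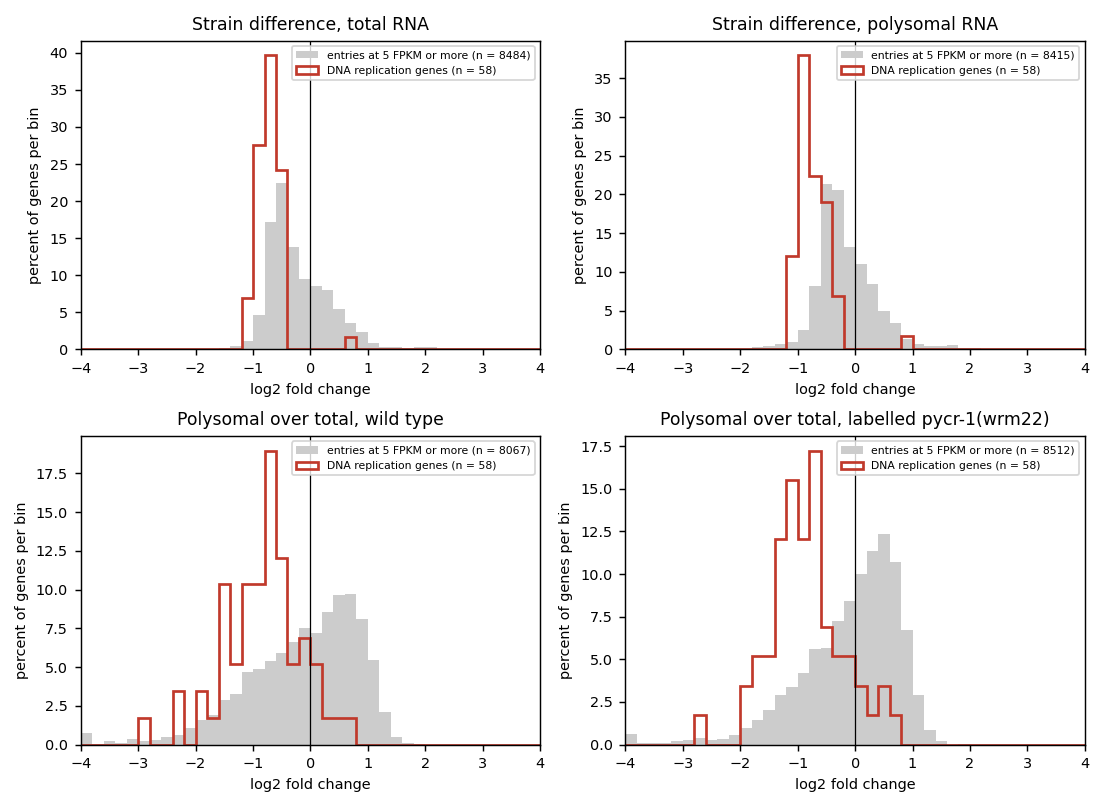
Percent of genes per bin of log2 fold change for the 58 tested DNA replication genes (red outline) and for entries at 5 FPKM or more in both groups (grey; 8484, 8415, 8067 and 8512 entries), in the 4 comparisons. Entries beyond the ends of the axis are counted in the end bins; the bulk of the red outline lies to the left of the grey one in each panel, with medians of -0.75, -0.80, -0.74 and -0.84.

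The members differed more in their polysomal share than in their strain difference. The strain differences in total RNA ran from -1.16 to 0.68, and from -1.16 to -0.41 without twnk-1, which was not called. Polysomal against total RNA in the wild type ran from -2.87 to 0.60. The lowest was T24C4.5 (WBGene00020761, chromosome III, 877435 to 879734), with 31.7 FPKM in total and 4.33 FPKM in polysomal RNA of the wild type, and 19.2 and 3.05 FPKM in the mutant-labelled strain. Its log2 difference in the authors' deposited table was -2.87 ± 0.21 in the wild type and -2.65 ± 0.19 in the mutant-labelled strain, both with q = 0.000207. It was the lowest member in both strains.

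Next came hmg-4 with -2.27 ± 0.17 and tres-1 with -2.26 ± 0.17 in the wild type, and the merged polk-1 entry with -1.97 ± 0.16 and tres-1 with -1.84 ± 0.15 in the mutant-labelled strain. The wild type had 44.5 FPKM of tres-1 in total and 9.30 FPKM in polysomal RNA. In the wild type the polysomal FPKM was 0.137 times the total FPKM for T24C4.5, 0.208 times for hmg-4 and 0.209 times for tres-1.

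At the other end only rfc-2 and mtss-1 were called higher in polysomal RNA. The clamp loader gene rfc-2 (WBGene00004338, chromosome IV, 1347316 to 1352977) had 47.6 FPKM in total and 69.4 FPKM in polysomal RNA of the wild type, and 28.6 and 39.3 FPKM in the mutant-labelled strain. The log2 difference in the authors' deposited table was 0.54 ± 0.16 in the wild type (q = 0.00346) and 0.46 ± 0.15 in the mutant-labelled strain (q = 0.00842). For mtss-1 it was 0.60 ± 0.16 (q = 0.000736) and 0.73 ± 0.15 (q = 0.000207). The 4 other clamp loader genes were all lower in polysomal RNA, from -1.42 to -0.72 in the wild type.

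Subunits of 1 complex could therefore differ. The loader subunit rfc-4 had 139.8 FPKM in total and 52.3 FPKM in polysomal RNA of the wild type, and the ratio of rfc-2 to rfc-4 was 0.341 in total and 1.33 in polysomal RNA there, and 0.354 and 1.33 in the mutant-labelled strain. The FACT genes hmg-3 and hmg-4, worm homologs of the same subunit, had 79.9 and 74.9 FPKM in wild-type total RNA but 81.6 and 15.6 FPKM in polysomal RNA. The ratio of hmg-4 to hmg-3 was thus 0.938 in total and 0.191 in polysomal RNA of the wild type, and 0.826 and 0.229 in the mutant-labelled strain. The interval of hmg-3 is 4.13 times as long as the annotated gene and takes in 2 others, and the treatment of reads shared by such close relatives is not given in the sources used here. These ratios are descriptions with no test.

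Within the MCM helicase 5 of 6 subunits were lower in polysomal RNA, between -0.69 and -0.44 in the wild type, while mcm-2 was not called in either strain (0.12 ± 0.15 in the wild type and 0.04 ± 0.15 in the mutant-labelled strain). Of the GINS subunits sld-5 was not called (-0.06 ± 0.18 in the wild type), while psf-1 and psf-3 were at -1.56 ± 0.32 and -1.56 ± 0.19. PCNA was not called in the wild type (-0.22 ± 0.15, q = 0.233 in the authors' deposited table) and was lower in polysomal RNA in the mutant-labelled strain (-0.61 ± 0.15, q = 0.000207). All 5 fork helicase and topoisomerase genes and both ribonucleotide reductase genes were lower in both strains. The members not called in either strain were mcm-2, sld-5, pola-1, smc-5, hmg-3, polg-1, twnk-1, tofu-6 and ubr-4.

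The order of the members by polysomal share was much the same in both strains, with Pearson's r = 0.957 and Spearman's rho = 0.954 across 58 genes. This is a description across genes, which are not independent replicates. Coding length ran from 510 to 12654 bases over the 58 members and had almost no rank relation to polysomal share (Spearman's rho 0.05 in the wild type and 0.08 in the mutant-labelled strain).

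**Figure D4:**
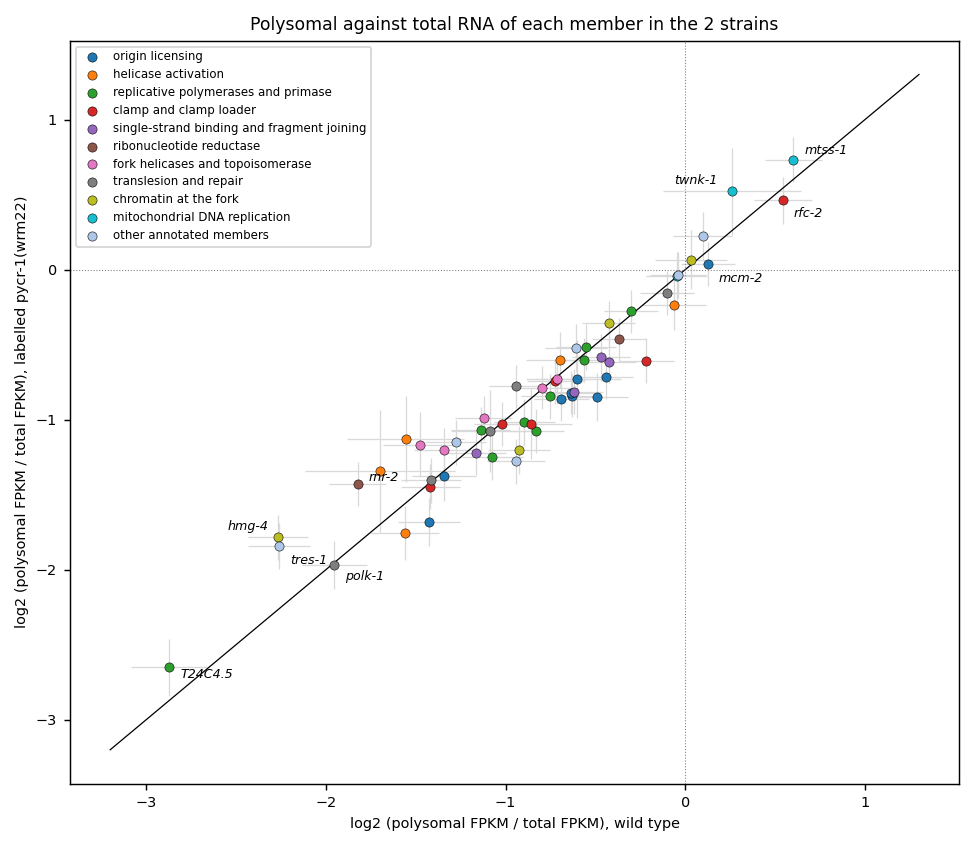
Log2 ratio of polysomal to total FPKM of each of 58 members in the mutant-labelled strain (vertical axis) against the wild type (horizontal axis), coloured by role, with a line of equal values. Grey bars are the standard error from the variances implied by the authors' test statistics, each divided by the group's number of libraries (3 or 4). The points follow the line from T24C4.5 at -2.87 and -2.65 to mtss-1 at 0.60 and 0.73.

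Whether the strain difference itself differed between total and polysomal RNA was tested as polysomal minus total log2 fold change with a Wald test across 14011 entries and Benjamini-Hochberg adjustment. No member was called (0 of 58), against 0.0785% of entries called lower and 0.0714% called higher. The members' differences ran from -0.39 for pcn-1 to 0.48 for hmg-4, with a median of -0.02. Only hmg-4 had an unadjusted p under 0.05 (0.48 ± 0.23, q = 1.00 by the Wald test and Benjamini-Hochberg). Those of pcn-1 and rnr-2 were -0.39 ± 0.21 and 0.39 ± 0.22 in the same test across all entries. Without division of the variances by the number of libraries, 0 members were called too. On simulated data that setting recovered 0% of log2 changes of 1, so its count adds no support. The divided variances recovered 54% of such changes. The changed genes, 100 of each size, were drawn from all 14011 entries, and only 21 entries were called in the real data. The 54% is therefore not the recovery rate for the members. All members' differences were smaller than 1, so differences of their size may be missed. The larger polysomal fall of pcn-1 and the smaller one of hmg-4 and rnr-2 were thus not shown to differ from their falls in total RNA.

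Other genes of the same pathway that the annotation term leaves out moved the same way. Of 51 genes of the role lists outside the term, 46 fell, 1 rose and 4 were not called in total RNA, and 44 fell, 1 rose and 6 were not called in polysomal RNA. Their median log2 fold changes were -0.69 and -0.66. Among all entries at 5 FPKM or more in both groups, 43.8% fell in total RNA and 34.3% in polysomal RNA. The medians there were -0.35 and -0.26. All 5 licensing genes fell in both fractions, among them the largest origin recognition subunit gene orc-1 (-0.90 ± 0.15 in total RNA) and orc-4 (-0.94 ± 0.16). All 5 genes of helicase activation fell in both, among them ctf-4 (-0.85 ± 0.15), whose product ties the helicase to polymerase alpha. All 3 genes of nucleotide supply fell in both, with dut-1, the dUTPase, at -1.07 ± 0.15 and thymidylate synthase tyms-1 at -1.0 ± 0.17 in total RNA.

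Among genes of S phase entry and turnover 8 of 10 fell in total and 7 of 10 in polysomal RNA. Cyclin E, cye-1, fell by 0.69 and 0.73, and the transcription factor genes efl-1 and dpl-1, which form the worm E2F complex, fell by 0.78 and 0.82 in total RNA. The inhibitor of cyclin-dependent kinases cki-1 went the other way, from 6.75 to 8.99 FPKM in total RNA, which was not called (0.41 ± 0.21, q = 0.0874 in the authors' deposited table), and from 8.11 to 12.99 FPKM in polysomal RNA, a rise of 0.68 ± 0.21 (q = 0.00346). Of 10 checkpoint genes 9 fell in total and 7 in polysomal RNA, with the kinase gene atl-1 at -0.47 ± 0.15 in total RNA and chk-2 not called in either. Replication-coupled chromatin assembly fell in 5 of 5 genes in both fractions, topoisomerases in 2 of 2, fork protection in 3 of 4 and then 4 of 4, and fragment processing in 3 of 3 and then 2 of 3. The single listed genes of the polymerase, clamp loader and mitochondrial groups, pole-4, ctf-18 and hmg-5, fell in both.

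The single-strand binding gene rpa-4 was the one listed gene that rose in total RNA, from 4.98 to 7.64 FPKM (0.62 ± 0.21, q = 0.00830 in the authors' deposited table). It fell in polysomal RNA, from 1.17 to 0.618 FPKM (-0.92 ± 0.41, q = 0.0166). The difference between the fractions, -1.54 ± 0.46, was not called (q = 0.209, Wald test with Benjamini-Hochberg adjustment). In the wild type 40 of the 51 genes were called lower in polysomal than in total RNA, 0 higher and 11 were not called. In the mutant-labelled strain 40 were called lower, 1 (cki-1) higher and 10 were not called. Among all entries at 5 FPKM or more in both groups, 32.6% were called lower and 32.8% higher in the wild type. In the mutant-labelled strain these shares were 28.5% and 32.6%. In the wild type the lowest listed value was that of cdt-2, the adaptor that marks CDT-1 for destruction, at -3.11 ± 0.50, followed by orc-1 at -3.09 ± 0.18. In the mutant-labelled strain it was that of rpa-4, at -3.63 ± 0.32.

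Markers of the tissues that carry dividing cells were counted beside the same shares of all entries. Of 14 germline markers 12 fell and 0 rose in total RNA, with a median log2 fold change of -0.58, where 43.8% of entries at 5 FPKM or more fell. In polysomal RNA 5 of 14 fell and 0 rose, with a median of -0.28, which is near the 34.3% of entries and the median of -0.26 at that level. Their summed level was 1620 FPKM in wild-type total, 1096 FPKM in mutant-labelled total, 1401 FPKM in wild-type polysomal and 1100.1 FPKM in mutant-labelled polysomal RNA. All 11 oocyte markers fell in both fractions, with medians of -0.99 and -1.58, and summed to 3167, 1609, 1354 and 448 FPKM in the same order. In total RNA 5 of 11 markers of zygotic embryo transcription were tested and 4 fell. In polysomal RNA 5 were tested and 3 fell, and only pes-10 and sdz-16 were tested in both fractions. The median over all 11 was 0.263 FPKM in wild-type and 0.124 FPKM in mutant-labelled total RNA. Markers with very low levels had no test. The tested ones could thus be those high in the wild type, and these counts cannot show a fall of the list. All 11 markers summed to 4.32, 1.54, 5.07 and 1.82 FPKM in the order used above. Sperm markers rose in 9 of 11 in total and 7 of 11 in polysomal RNA, with none called lower. Of all entries tested, 18.6% rose in total and 14.8% in polysomal RNA, and at 5 FPKM or more 12.1% and 10.5%. Some sperm markers that rose in total RNA were low in the wild type there. These were spe-29 at 0.562 FPKM, spe-38 at 0.765 FPKM and spe-9 at 1.19 FPKM.

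Somatic markers were counted in the same way. In total RNA 3 of 9 intestine markers, 2 of 10 muscle markers, 2 of 10 neuron markers and 4 of 10 epidermis markers rose. In the epidermis list 2 markers fell. Of all entries 18.6% rose, and of those at 5 FPKM or more in both groups 12.1% rose. The muscle and neuron counts are near the former share and little above the latter. In polysomal RNA no intestine or muscle marker was called, neuron markers rose in 2 and fell in 1, and epidermis markers rose in 5 and fell in 1. There 14.8% of all entries rose, and 10.5% of those at 5 FPKM or more in both groups. The median log2 fold change of the epidermis markers was 0.85 in total and 0.97 in polysomal RNA, farther from 0 than that of the germline markers. Summed levels in total RNA went from 3182 to 3424 FPKM for intestine, from 2205 to 2449 FPKM for muscle, from 159.3 to 158.2 FPKM for neuron and from 1414 to 1175 FPKM for epidermis. Most of the epidermis sum was the collagen gene col-19, at 1251 and 1019.9 FPKM and not called in total RNA. The median over the epidermis list was 4.55 FPKM in wild-type and 9.87 FPKM in mutant-labelled total RNA. This list was split, and its median fold change lay in the gap. In total RNA dpy-7, rol-6, bli-1, mlt-10 and ptr-4 lay from 1.49 to 2.27, with bli-1 not called. The markers col-19, lin-26, nhr-23, elt-1 and elt-3 lay from -0.63 to 0.21. No marker stood at 0 in all 4 groups, and the part of these markers in the fall of the replication genes was not tested.

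Between the fractions, oocyte markers were lower in polysomal RNA in 10 of 11 in the wild type and 11 of 11 in the mutant-labelled strain, while 7 of 10 muscle and 5 of 9 intestine markers were higher in each strain with none called lower. Of 14 germline markers 7 were lower and 2 higher in the wild type, and 6 and 2 in the mutant-labelled strain. At 5 FPKM or more, 32.6% of all entries were lower and 32.8% higher in the wild type, and 28.5% and 32.6% in the mutant-labelled strain. The part of these markers in the low polysomal share of the replication genes was not tested.

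The members were unevenly spread over the chromosomes, a feature the annotation term did not use. Of 59 members 17 lay on chromosome I (28.8%) and 16 on chromosome III (27.1%), where 16.4% and 15.4% of the 14615 tested protein-coding entries lie. Chromosome X held 1 member, 1.69%, against 14.1% of the tested protein-coding entries. Chromosomes II, IV and V held 10, 7 and 8 members. These shares are a description.

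Reads of neighbours could enter some values, since 26 of the 58 tested members have another annotated protein-coding gene within the deposited interval. Of the remaining 32, all fell in total RNA, 27 fell in polysomal RNA, and 26 and 27 were lower in polysomal than in total RNA in the wild type and the mutant-labelled strain.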

How the data were processed

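Per the submitters' processing notes, the tools were HISAT2 2.1.0, StringTie 1.3.4d, Cuffdiff 2.2.1 and FastQC 0.11.7, with WBcel235 as the build. Their settings, the use of strand and how reads with several matches were counted are not given in the sources used here. Near-identical, overlapping and antisense genes are therefore uncertain. The authors' deposited table gave pooled FPKM values for 4 groups and 41875 entries, formed from 46218 gene IDs. For pairs of groups the authors deposited a test statistic from Cuffdiff (a score), a log2 fold change, a p-value and a q-value; the authors' smallest p-value was 5e-05, which gives the smallest q-value of 0.000207. Depth was unknown.

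Members were entries with the exact term; 11 roles were assigned by hand. The members, 13 role lists, 8 marker lists, tests and alternatives were chosen with earlier results of these data known. A call was q under 0.05. A planned per-library model was not fitted, for want of single-library values. Standard errors came from the natural log of the fold over the test statistic, solved for each group and divided by its number of libraries (3 or 4). In total RNA, for 2000 entries with p from 0.001 to 0.01, the median p was 0.0031 as deposited, 0.00206 with divided and 0.100 with undivided variances. The pairing of total and polysomal libraries by replicate was ignored in the Wald test. Tested on simulated data for the difference between fractions over 14011 genes, it recovered 54% of log2 changes of 1 and 85% of changes of 2 and called 13 unchanged genes; with undivided variances it recovered 0% and 55% and called 0. The noise was drawn with divided variances, so this cannot show which variance is right.

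All members are named or counted by role; the text also names the 5 largest called changes per strain comparison and the 3 highest and lowest per fraction comparison. Lists were summarised by counts and medians. Of the names listed, cdc-45, sld-3, pold-1 to pold-4, rfc-5, atad-5, fen-1, polg-2 and opt-2 matched no entry by symbol. Some older names in the table were matched to current symbols (tres-1, rev-3, twnk-1). Start positions count from 0 in the table, and 1 was added; gene models were those of Ensembl release 115. The planned search for promoter motifs was not run, as no promoter sequences were used here. Python 3.11.15, pandas 2.3.3, scipy 1.17.1 and matplotlib 3.10.9 were used.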

Additional observations from a re-analysis of the deposited data

How the results depend on the processing

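No paired analysis was possible because only pooled group values were given, and leaving out replicates was not run for the same reason. Of the counts and medians recomputed under the alternatives, 84 kept their direction and size and 11 moved; none reversed. With only members free of other protein-coding genes in the interval, an alternative chosen after seeing the data, 32 members fell in total RNA and 27 in polysomal RNA, 0 rose in polysomal RNA, and 26 and 27 were lower in polysomal than total RNA in the wild type and the mutant-labelled strain, since only 32 members were left. Including entries with any term that contains the words, 2 members rose in total and 3 in polysomal RNA, since more entries were counted. With only entries at 1 FPKM or 5 FPKM or more in both groups, 0 members rose in polysomal RNA, since twnk-1 lies under these levels. Centred on the median of entries at 5 FPKM or more, the median was -0.40 in total and -0.55 in polysomal RNA. Of the values for single genes, 907 were labelled unchanged and 21 lost their call at q under 0.01. Calls were recomputed only for that threshold and for adjustment within 1 comparison. With 1 FPKM added to each level or with centring, only the direction of called genes was checked, so those settings say nothing on calls. The lack of values per library limits every result: the spread behind a call could not be inspected, and no level carries an error.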

Other observations

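Entries with another annotation term that contains the words DNA replication, but not the term itself, numbered 24. In total RNA 17 of them fell, 2 rose and 5 were not called, and in polysomal RNA 15 fell, 2 rose and 6 were not called. Among all entries at 5 FPKM or more in both groups, 43.8% fell and 12.1% rose in total RNA. In polysomal RNA these shares were 34.3% and 10.5%. Some of the 24, such as cdc-6, mus-101, dna-2 and ctf-4, are also among the 51 role list genes, so both sets of counts overlap. The 2 that rose encode ribonucleases H, enzymes that cut RNA paired with DNA, and were chosen for naming after their values were seen. Of these, rnh-1.3 went from 12.1 to 33.4 FPKM in total RNA and from 15.1 to 42.8 FPKM in polysomal RNA, rises of 1.46 ± 0.20 and 1.51 ± 0.21 on the log2 scale by the authors' deposited table (q = 0.000207 in both). The related rnh-1.1 went from 6.22 to 12.5 FPKM and from 6.203 to 10.3 FPKM, with 1.00 ± 0.18 and 0.73 ± 0.19. Another ribonuclease H gene, rnh-2, fell from 51.2 to 28.9 FPKM in total RNA (-0.82 ± 0.16, q = 0.000207 in the authors' deposited table). An entry that merges rnh-1.0 with vps-24 also fell in total RNA (-0.42 ± 0.16, q = 0.0231 in the authors' deposited table). Ribonuclease H genes thus differed in the direction of their strain difference. How reads are divided between rnh-1.1 and rnh-1.3 is not given in the sources used here.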
